A study of Caenorhabditis elegans with 2 samples.

Results

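The chaperone genes hsp-90, hsp-1, hsp-110, hsp-3, hsp-4, hsp-6 and hsp-60 of Caenorhabditis elegans are 7 of the 19973 annotated protein-coding genes examined. They were chosen by name after an earlier look at the same lists, in which hsp-90 had been selected on its peak, so the values of hsp-90 describe the choice and are not evidence for it. This holds for its ranks in the replicates too, since the pooled and IDR lists were made from them. The binding of NHR-84, a transcription factor of the nuclear hormone receptor type, was mapped by ChIP-seq in 1 group of 2 biological replicates. Both came from mixed-sex L1 larvae of strain OP357, which carries the unc-119(tm4063) mutation on III and the integrated transgene wgIs357. NHR-84 was tagged at its C terminus with GFP-FLAG, and the genotype lists no mutation of nhr-84 itself. Whole animals were used, and the labels name no promoter or cell type for the tagged protein. Without a second condition, and with no control library analysed here, the values show where regions were called and how they ranked, and no test between conditions was possible.

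The deposited values are a signal that the authors' peak caller gave to each called region. Each replicate list and the list from both replicates pooled hold 30000 regions, and background regions are part of these lists by their own description. The IDR list holds 106 regions and is named for a step on rank agreement between the replicates (irreproducible discovery rate). Its members were the 106 regions of highest pooled signal, and 29 of them were among the 106 highest of both replicates, so an IDR peak need not be high in each. Ranks below run from 1, the region with the highest signal, to 30000 within each list, because the signal has no stated scale and differs between lists. The median signal was 20.4 in the pooled list, 11.7 in replicate 1 and 11.5 in replicate 2. Depth is unknown, as no read counts were in these lists, and the counting error of a signal could not be computed.

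Chaperones bind unfolded or partly folded proteins and keep them from aggregating. In the cytosol HSP70 takes clients early, HSP110 helps HSP70 to exchange its nucleotide, and HSP90 acts late on clients such as kinases and steroid receptors, nuclear receptors that vertebrate HSP90 holds ready for ligand. The endoplasmic reticulum and the mitochondrion have their own HSP70s, and the mitochondrion has the barrel-shaped chaperonin HSP60 with its lid HSP10. Some chaperone genes are transcribed at a high level at all times. Others are induced when proteins misfold, through the factor HSF-1 in the cytosol, XBP-1 for the endoplasmic reticulum and ATFS-1 for mitochondria.

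All 7 genes had a pooled region with its summit between 2000 bp upstream of the gene start and the gene end, where 73.0% of all coding genes had one. The windows held 23 pooled regions, 26 regions of replicate 1 and 25 of replicate 2. That is 0.616 pooled regions per kb of window, against 0.315 over the windows of all coding genes. An IDR peak lay in the window of 1 of the 7, hsp-90, and of 0.736% of coding genes. By their highest pooled region the genes were ordered hsp-90, hsp-110, hsp-60, hsp-3, hsp-6, hsp-1 and hsp-4, at ranks 31, 185, 632, 981, 1580, 3474 and 6858. The median of these 7 ranks was 981, against 9339 over the 14583 coding genes with any region in the window. The order was not the same in both replicates, and hsp-90 was the only one of the 7 whose highest pooled region lay among the 106 highest of both.

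The sequences at the summits that carry these results are given 5′ to 3′ on the strand of the gene, with 50 bases to either side of the pooled summit, from the RefSeq copy of assembly WBcel235, which is build ce11. The first 4 are the promoter regions among the 5000 highest pooled regions. The next 4, from the second hsp-90 peak on, were added after their values were seen, so that each gene has its highest region. Capitals mark matches to the searched words, which are described after the values.
hsp-90, upstream peak, chrV:14685715-14685815: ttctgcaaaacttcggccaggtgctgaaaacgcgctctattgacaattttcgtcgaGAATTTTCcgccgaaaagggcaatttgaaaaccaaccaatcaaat
hsp-1, chrIV:17278477-17278577: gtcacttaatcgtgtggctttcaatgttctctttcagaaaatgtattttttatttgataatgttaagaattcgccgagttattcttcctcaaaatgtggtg
hsp-110, minus strand, chrIII:8447121-8447221: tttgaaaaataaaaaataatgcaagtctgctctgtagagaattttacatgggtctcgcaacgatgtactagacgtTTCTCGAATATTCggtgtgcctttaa
hsp-3, minus strand, chrX:6090682-6090782: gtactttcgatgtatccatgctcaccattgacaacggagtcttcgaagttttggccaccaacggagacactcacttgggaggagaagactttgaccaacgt
hsp-90, coding peak, chrV:14686333-14686433: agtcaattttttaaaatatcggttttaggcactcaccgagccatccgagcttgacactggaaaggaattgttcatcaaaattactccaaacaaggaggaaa
hsp-60, chrIII:1619085-1619185: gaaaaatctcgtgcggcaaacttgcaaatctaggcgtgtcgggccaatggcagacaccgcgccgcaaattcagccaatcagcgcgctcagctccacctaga
hsp-6, minus strand, chrV:4826578-4826678: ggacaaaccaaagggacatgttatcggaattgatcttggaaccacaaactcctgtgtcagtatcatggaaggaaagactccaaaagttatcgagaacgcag
hsp-4, minus strand, chrII:7351063-7351163: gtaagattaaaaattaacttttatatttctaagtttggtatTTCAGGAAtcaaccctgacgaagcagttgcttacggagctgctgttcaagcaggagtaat

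The gene for cytosolic HSP90, hsp-90 (WBGene00000915, ce11 V, 14684918 to 14688545, plus strand), had 2 IDR peaks on either side of its start codon. The higher one (14686231 to 14686534) had its summit at 14686383, in the second coding exon, with a pooled signal of 71.8 and rank 31. It ranked 35 in replicate 1 (signal 36.8) and 66 in replicate 2 (33.3). The other (14685613 to 14685916) had its summit at 14685765, 618 bp further upstream, with a pooled signal of 60.4 and rank 52. It ranked 104 in replicate 1 (signal 29.2) and 86 in replicate 2 (31.1). Both peaks thus stood among the 106 highest regions of each replicate. Their replicate summits lay within 44 and 49 bp of the pooled ones at most, for the upstream and the coding peak. The coding peak was the higher of the pair in both replicates.

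A pair of IDR peaks in one window was rare. Of all coding genes, 5 (0.0250%) had 2 or more, namely hsp-90, C47E8.4, wwp-1, T28F4.4 and ZK470.2. The window of C47E8.4 holds the same 2 peaks as that of hsp-90, since the genes are read in opposite directions and their annotated 5′ ends overlap. C47E8.4 (annotated as a homolog of the protein FAM50, minus strand, 14683698 to 14685485) starts 280 bp from the upstream summit, which is thus in the promoter window of both genes. A promoter window here runs from 500 bp upstream to 100 bp downstream of any annotated transcript start. The coding peak lay in the promoter window of neither gene.

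The place of the hsp-90 peaks depends on which annotated start is used. The longer transcript starts at 14684918, inside C47E8.4, and its first intron holds the upstream summit 847 bp downstream of that start. The shorter transcript starts at 14686160, so that the upstream summit is 395 bp before it and the coding summit 223 bp after it. That base is also where the second exon of the longer transcript begins, directly after the bases ag, which end an intron. Whether transcription starts there was not tested. The stretch from 100 bp before the start codon to its last base is shown with this ag and the start codon in capitals.
hsp-90, start codon, chrV:14686064-14686166: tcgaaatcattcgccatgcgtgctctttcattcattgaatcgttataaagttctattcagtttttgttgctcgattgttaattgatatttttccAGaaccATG

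Lower regions continued along the hsp-90 gene. A pooled region at 14686970, in a coding exon, had rank 1164 (signal 33.3) and a match within 100 bp in replicate 2 alone, at rank 3712. Near the 3′ end, pooled regions at 14688217 (rank 3563) and 14688479 (rank 14744) had matches in replicate 1 alone, at ranks 3013 and 6100. These last 2 also lie in the promoter window of the next gene, C47E8.11. The 3 lower regions were thus each found in a single replicate, unlike the pair around the start codon.

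The other cytosolic chaperones stood lower. The gene for HSP110, hsp-110 (WBGene00016250, III, 8443910 to 8446909, minus strand), had its highest region 262 bp upstream of its start, at 8447171, with a pooled signal of 46.0 and rank 185. It ranked 145 in replicate 2 (signal 27.97) and 6162 in replicate 1 (14.6), above 79.5% of that list. The summit also lies 182 bp upstream of rpn-3, which encodes a non-ATPase subunit of the 26S proteasome and is read the other way. The starts of the 2 genes are 444 bp apart, and a noncoding RNA gene, C30C11.14, has the same summit in its promoter window. The region cannot be assigned to one of these genes from its position. The 2 other pooled regions of the window ranked 21633 and 28429.

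The constitutive cytosolic HSP70 gene hsp-1 (WBGene00002005, IV, 17278959 to 17281330, plus strand) had 3 pooled regions, and none was high. The highest lay 432 bp upstream of the start, with a signal of 27.8 and rank 3474, and 25 bp from the noncoding RNA gene F26D10.23. Its replicate summits were within 1 bp of the pooled one, but its ranks were 15495 in replicate 1 and 15254 in replicate 2. Both replicates placed it near the middle of their lists. Each had its highest hsp-1 region elsewhere, replicate 1 at 697 bp into the gene (rank 2594) and replicate 2 at 92 bp (rank 2442). A pooled region in the gene body at 17279991 (rank 7761) lies 55 bp from the snoRNA gene F26D10.24, which sits within hsp-1.

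The 2 genes for BiP, the HSP70 of the endoplasmic reticulum, differed in their values. hsp-3 (WBGene00002007, X, 6089028 to 6092124, minus strand), the copy known as constitutive, had 4 pooled regions. The highest (6090580 to 6090883) had a signal of 34.3 and rank 981. It had a match at rank 1285 in replicate 2 (signal 19.3) and none within 100 bp in replicate 1. A replicate 1 region of rank 15490 (6090404 to 6090693) overlaps it, with its summit further than 100 bp away. The pooled summit at 6090732 is in a coding exon, 1392 bp from the gene start. It counts as at a promoter because 1 short transcript model starts 261 bp further on, at its own start codon. Before the gene start itself, the region at 481 bp ranked 11248 in the pooled list and 2814 in replicate 1, with no match in replicate 2. The replicates thus had their highest hsp-3 regions at different places.

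The BiP gene induced by misfolded protein, hsp-4 (WBGene00002008, II, 7350112 to 7352645, minus strand), had the fewest regions of the 7 genes. Its 1 pooled region, in a coding exon 1532 bp from the gene start, had a signal of 24.5 and rank 6858. Replicate 1 had 1 region there (rank 1985, signal 18.04). Replicate 2 had no region anywhere in the window, and no list had one before the gene start. Density was 0.221 pooled regions per kb in the hsp-4 window and 0.785 in that of hsp-3, against 0.888 for hsp-90.

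Both mitochondrial chaperone genes, known as reporters of the mitochondrial stress response, had their highest region in replicate 2 matched weakly or not at all in replicate 1. For the HSP60 gene hsp-60 (WBGene00002025, III, 1619742 to 1625803, plus strand) the highest pooled region was 607 bp upstream of the start, with a signal of 37.01 and rank 632. Replicate 2 had it at rank 62 (signal 33.7), its summit 75 bp away, and replicate 1 had no region within 100 bp. In replicate 2 this was the highest region of all 7 genes, just above the coding peak of hsp-90 at rank 66. In replicate 1 the highest hsp-60 region ranked 8381, inside the gene.

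The upstream region of hsp-60 lies outside its 500 bp promoter window and inside that of Y22D7AL.10, 206 bp before the start of that gene. Y22D7AL.10 (III, 1617151 to 1618929, minus strand) is annotated by RefSeq as the mitochondrial 10 kDa heat shock protein, the partner of HSP60. The starts of these head-to-head genes are 813 bp apart. The region therefore lies between the genes of both parts of the mitochondrial chaperonin, and it cannot be assigned to one of them. Within hsp-60, pooled regions at 451 bp (rank 3381) and 1352 bp (rank 5813) from the start followed. The second of these had a match in both replicates, at ranks 20783 and 10832.

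The mitochondrial HSP70 gene hsp-6 (WBGene00002010, V, 4824124 to 4826760, minus strand) had 3 pooled regions, all in coding exons. The highest lay 132 bp after the start, with a signal of 31.7 and rank 1580. It ranked 1335 in replicate 2 (signal 19.1) and 19066 in replicate 1 (10.8), and its summit is also in the promoter window of C37H5.15. The pooled summit lay beyond the 100 bp limit of the hsp-6 promoter window. Inside that window were the replicate 1 summit of rank 19066 and a replicate 2 summit of rank 15934, 80 bp upstream. Replicate 1 had higher regions further into the gene, at 1700 bp (rank 1025) and 599 bp (rank 1837), which had no pooled region within 100 bp. The pooled regions at 4824951 and 4825741, ranks 6370 and 7808, had no summit of either replicate within 100 bp. The first of them (4824799 to 4825102) nevertheless overlaps the replicate 1 region of rank 1025 (4824915 to 4825204).

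**Figure D1:**
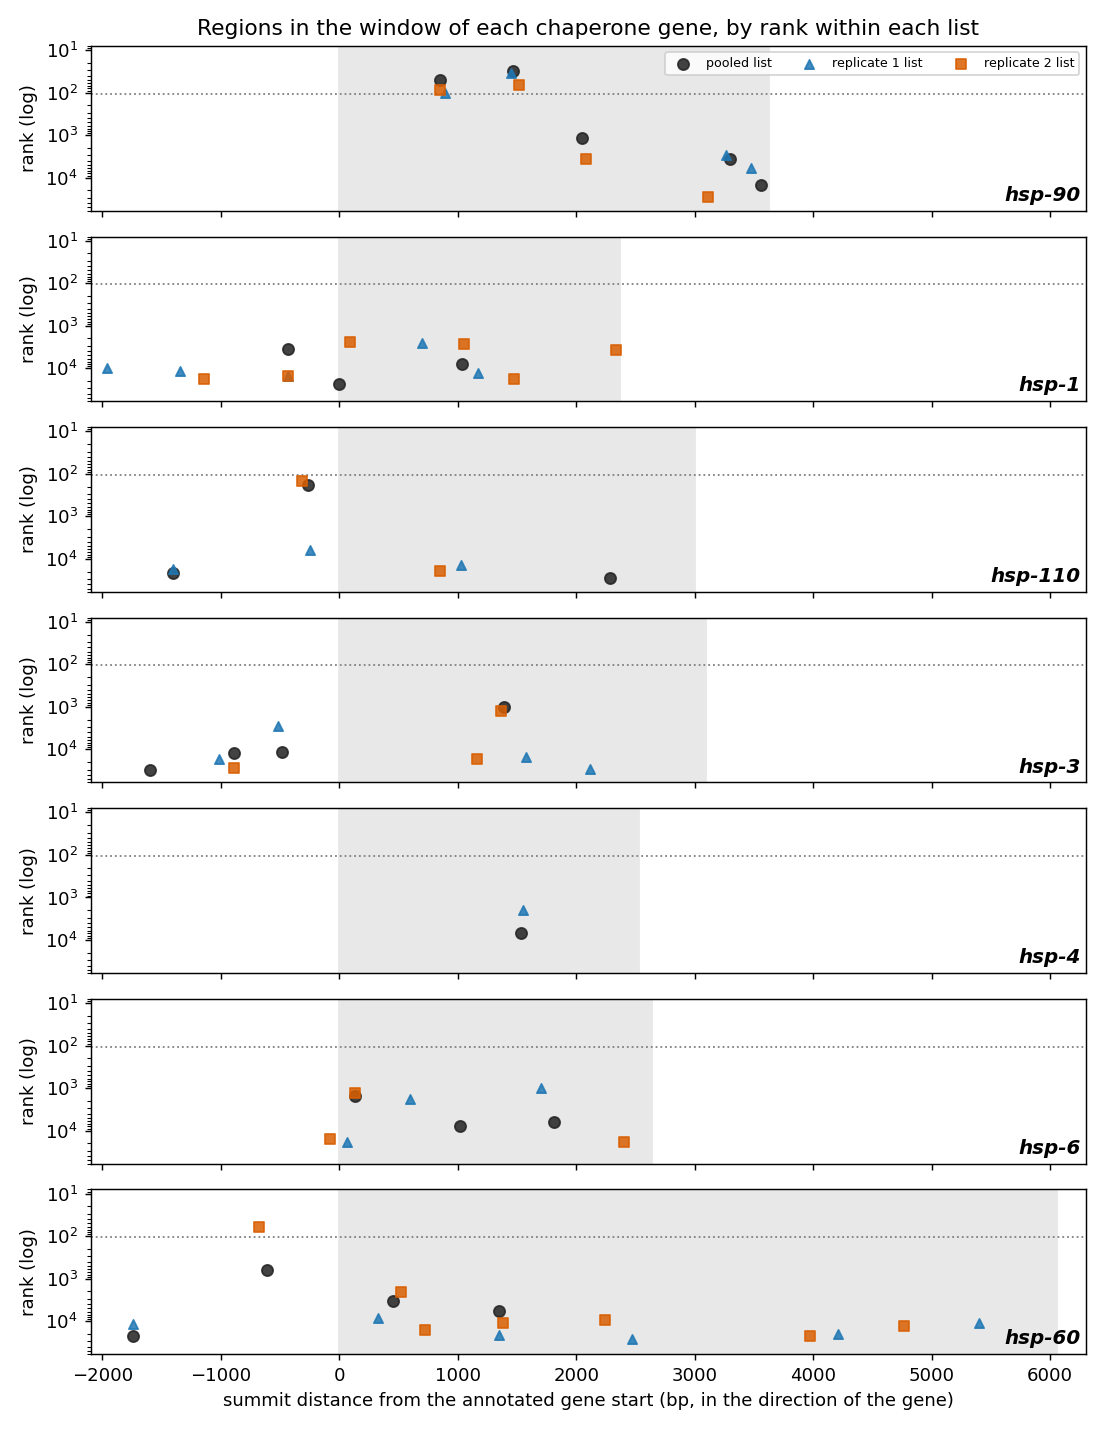
Rank of each region within its own list (log axis, rank 1 at the top) against the distance of its summit from the annotated gene start in bp, for the pooled list and both replicates. Grey spans are the gene bodies and the dotted line is rank 106, the size of the IDR list. The 2 clusters of hsp-90 near 847 and 1465 bp lie above the line in all 3 lists, while hsp-60 has 1 replicate 2 region above it, at rank 62.

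Agreement between the replicates was given by summits within 100 bp, so overlapping regions with summits further apart count as unmatched. Of the 23 pooled regions, 6 (2 of them at hsp-90) had a region of both replicates within 100 bp, where 20.1% of all pooled regions had one, and 4 had a match in neither. Among the 1000 highest pooled regions, 5 lay in these windows, at hsp-90, hsp-110, hsp-60 and hsp-3. Of these 5, 3 had matches in both replicates, as had 80.8% of the 1000 highest, and 2 were among the 1000 highest of each replicate, as were 13.1%. Those 2 are the pair at hsp-90, the gene selected on these peaks. For the highest regions of hsp-110 and hsp-6 the match ranked higher in replicate 2, those of hsp-60 and hsp-3 were matched in replicate 2 alone, and that of hsp-4 in replicate 1 alone. Whether depth or another property of the libraries gave this pattern was not tested, since the lists hold no read counts.

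**Figure D2:**
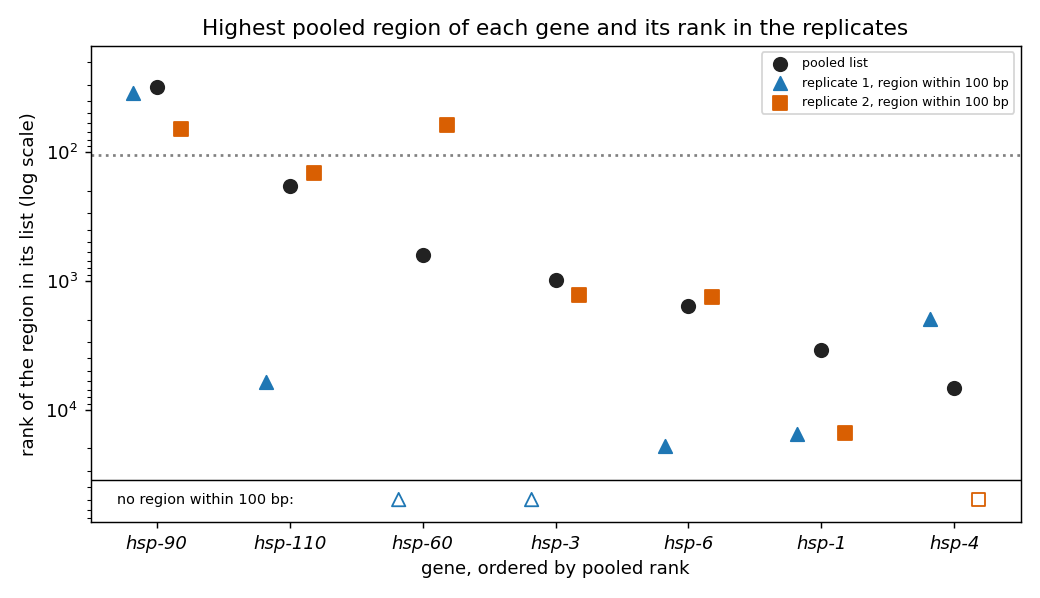
Rank (log axis, 1 at the top) of the highest pooled region of each gene, and of the replicate regions with a summit within 100 bp of it. Open symbols below the solid line mark no such region, and the dotted line is rank 106. For hsp-90 all 3 ranks (31, 35 and 66) lie above the dotted line, for hsp-110 the replicates are at 6162 and 145, and hsp-60 and hsp-3 have none in replicate 1.

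By place, 6 of the 23 pooled regions were at a promoter, 12 in a gene body and 5 further upstream. By annotation of the gene itself, 11 summits were in coding exons, 2 in introns, 1 in a 5′ UTR, 1 in a 3′ UTR and 8 outside the gene. The same splits over all pooled regions were not computed, so no preference for a place can be read from them. A pooled region was at the promoter of 4 of the 7 genes (hsp-90, hsp-1, hsp-110 and hsp-3), as for 25.1% of coding genes. One of the 5000 highest was at the promoter of the same 4 (6.40% of coding genes) and in the window of 6 (22.4%). One of the 1000 highest was at the promoter of 3 (2.01%) and in the window of 4 (5.63%), and an IDR peak was at the promoter of hsp-90 (0.360%). These counts share their selection with the choice of the genes, and nothing is read from the difference. The pooled region nearest inside the edge of the window was 1739 bp upstream of hsp-60 (rank 22213), and the nearest outside was 2376 bp upstream of hsp-6 (rank 19347). The lowest IDR peak had a signal of 52.0 and the next pooled region 51.7, so the upstream hsp-90 peak stood above that edge at 60.4.

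The searched words were at some of these summits. GAANNTTC and TTCNNGAA are the core of the heat shock element that HSF-1 binds, TGACGTGG is an element bound by mammalian XBP1, AGGTCA is a half-site of many nuclear receptors, and GAGAGA is a repeat known at many promoters. All 5 words were searched on both strands within 50 bp of the summit. GAANNTTC was at 3 of the 23 regions (13.04%), among them the upstream hsp-90 peak, and at 7.01% of all pooled regions. TTCNNGAA was at 4 (17.4%, against 7.15% of all), in hsp-110, hsp-1, hsp-4 and hsp-6. The hsp-4 match holds the bases ag, which can end an intron, and whether HSF-1 binds there was not tested. AGGTCA was at 1 (4.35%, against 2.52%), the hsp-3 region before the gene start, and GAGAGA at 1 (against 6.67%), in the hsp-1 body. Of IDR peaks, 6.6% held GAANNTTC, 1.89% TTCNNGAA, 3.77% AGGTCA and 17.9% GAGAGA. These differences were not tested. TGACGTGG was at none of the 23 regions. The 300 bp before the start codon held it in none of the 7 genes, and in 0.847% of coding genes. At the coding peak of hsp-90 none of the 5 words was found.

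In the 300 bp before the start codon, hsp-90 held TTCNNGAA once, over the ag where the exon begins, and hsp-1 and hsp-110 held both heat shock words. Of coding genes 18.9% hold GAANNTTC there and 19.4% TTCNNGAA. GAGAGA was found 3 times before the hsp-3 start codon, and 4382 of 19957 coding genes hold it there. AGGTCA was before none of the 7, and before 8.52% of coding genes.

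The hsp-110 summit held both heat shock words overlapping, as the capitals in its sequence show. This arrangement, of alternating units as in a full heat shock element, was at 0.637% of pooled regions and at no other of the 23. The search for it was added after the sequence had been seen, and no IDR peak held it. Bases within 50 bp of the summit were 42.6% G or C at the upstream hsp-90 peak and 38.6% at the coding one. It was 56.4% at the hsp-60 upstream region, the highest of the 23, whose mean was 41.4% ± 7.98 (SD, n = 23 regions). All pooled regions gave 36.9% ± 7.9 (SD, n = 30000) and IDR peaks 45.7% ± 7.99 (SD, n = 106).

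HSP70 genes are similar in sequence, and the sources used here do not say how reads matching several copies were placed. In 21 of the 23 pooled regions no stretch of 36 bp occurred a second time in the genome. The exceptions were the hsp-1 region at the gene start, with 10.8% of its 36 bp stretches repeated, and the hsp-60 intron region at 1621094, with 6.69%. Neither is the highest region of its gene.

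The genes whose promoter region was most like the upstream hsp-90 peak, by distance of log10 ranks over the 2 replicates and the pooled list, were vps-37, F59A6.11, citk-2, ints-4, ndab-1 and npp-16, with the last 2 tied. vps-37 ranked 57 in the pooled list, 152 in replicate 1 and 107 in replicate 2 (distance 0.194). F59A6.11 and citk-2 share 1 region, at 42, 114 and 58 (0.199), and ndab-1 and npp-16 share another, at 69, 132 and 141 (0.268). ints-4 stood at 38, 133 and 61 (0.229). These 4 regions were the nearest among 1284 genes with a promoter region matched in both replicates, and none is at a chaperone gene of the lists used here.

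A wider list of 93 other chaperone genes and stress regulators, 90 of them annotated under these names, was examined in the same way. A pooled region was at the promoter of 43 of the 90 (47.8%, against 25.1% of coding genes). One of the 1000 highest was at 10 (11.1%, against 2.01%), of which F44E5.4 and F44E5.5 share the same region. An IDR peak was at 3, and at 0.360% of coding genes. The IDR peaks were at cct-8 (rank 79), a subunit of the cytosolic chaperonin TRiC, bag-1 (rank 81), an exchange factor of HSP70, and dnj-11 (rank 87), a J-domain partner of HSP70. In the replicates cct-8 ranked 122 and 354, bag-1 381 and 121, and dnj-11 311 and 80. None of these 3 was among the 106 highest of both replicates.

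Of the HSP90 family and its co-chaperones, 3 of 11 had a promoter region (27.3%, against 25.1% of coding genes). None was among the 1000 highest, where 2.01% of coding genes had one at the promoter. The highest was that of cdc-37 (rank 1353), which brings kinases to HSP90. The endoplasmic HSP90 gene enpl-1, the mitochondrial one, hsp-75, and the co-chaperone gene sti-1 had none at the promoter. Their highest regions in the window ranked 2162, 20215 and 1780. No gene of the list had one of the 1000 highest regions in its whole window, where 5.63% of coding genes had one. The ranks of hsp-90, 31 and 52, are those of a gene selected on its peak.

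Of HSP70 relatives and exchange factors, 6 of 9 (66.7%) had a promoter region, against 25.1% of coding genes. One of the 1000 highest was at 4 (44.4%, against 2.01%), with F44E5.4 and F44E5.5 both counted. The heat-induced HSP70 genes F44E5.4 and F44E5.5 share one region between them (II, summit 11759492, pooled rank 196), at rank 171 in replicate 1 and 1038 in replicate 2. In it 5.58% of 36 bp stretches occur elsewhere in the genome, and these genes are near-identical copies. That shared region stood above the highest region of the constitutive hsp-1, at rank 3474. hsp-70, another heat-induced gene, had no promoter region and a highest rank of 11490 in its window. The region of unc-23, an exchange factor gene, ranked 514, and 1174 and 2232 in the replicates.

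Small heat shock protein genes, several of which are induced by heat, had a promoter region at 3 of 12 (25%, against 25.1% of coding genes). None was among the 1000 highest, where 2.01% of coding genes had one at the promoter. The highest were sip-1 (rank 1024) and hsp-16.41 (rank 1836), each matched in replicate 2 alone, at ranks 645 and 894. The sip-1 region also lies in the promoter window of sly-1, and the hsp-16.41 region was also the highest in the window of hsp-16.2. hsp-16.1 and hsp-16.48 had no pooled region in the window at all. Among J proteins 16 of 29 (55.2%) had a promoter region and 3 (10.3%) one of the 1000 highest. These 3 were dnj-11, dnj-14 at rank 200 and dnj-29 at rank 531. Of TRiC and prefoldin genes 9 of 14 (64.3%) had a promoter region. One of the 1000 highest was at 21.4% of them, namely cct-8, cct-7 (rank 228) and cct-6 (rank 529). cct-7 was matched in replicate 1 alone, at rank 146, and cct-6 in replicate 2 alone, at rank 1112. The regions of dnj-11, dnj-14, dnj-29, cct-6, cct-7 and cct-8 each lie in the promoter window of a further gene.

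Genes of folding in the endoplasmic reticulum (3 of 7, 42.9%) and stress regulators (3 of 8, 37.5%) had promoter regions too, against 25.1% of coding genes. None of these was among the 1000 highest, where 2.01% of coding genes had one at the promoter. cnx-1, the membrane lectin calnexin, ranked 2077, and 21905 and 27543 in the replicates. pdi-2, a disulfide isomerase, ranked 2819, and 28427 and 2400 in the replicates. Their regions also lie in the promoter windows of ZK632.16 and C07A12.19. Away from the promoter, pdi-3 had a region of rank 645 in its window, where 5.63% of coding genes had one of the 1000 highest. Among the regulators atfs-1 had the highest region (rank 2193, and 20819 and 513 in the replicates), followed by xbp-1 (rank 8245). hsf-1 had none at its promoter. Of the stress-induced genes named here, F44E5.4 and F44E5.5 stood at rank 196, hsp-16.41 and hsp-16.2 at 1836, hsp-4 at 6858 and hsp-70 at 11490. The genes hsp-16.1 and hsp-16.48 had no region. The mitochondrial hsp-60 and hsp-6, which are expressed without stress and rise under mitochondrial stress, stood at 632 and 1580. Of the constitutive ones, hsp-90 stood at 31, hsp-3 at 981 and hsp-1 at 3474, so the ranks of these groups overlapped. The remaining member, hsp-110 at rank 185, was placed in none of these groups. The differences between these lists were not tested.

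**Figure D3:**
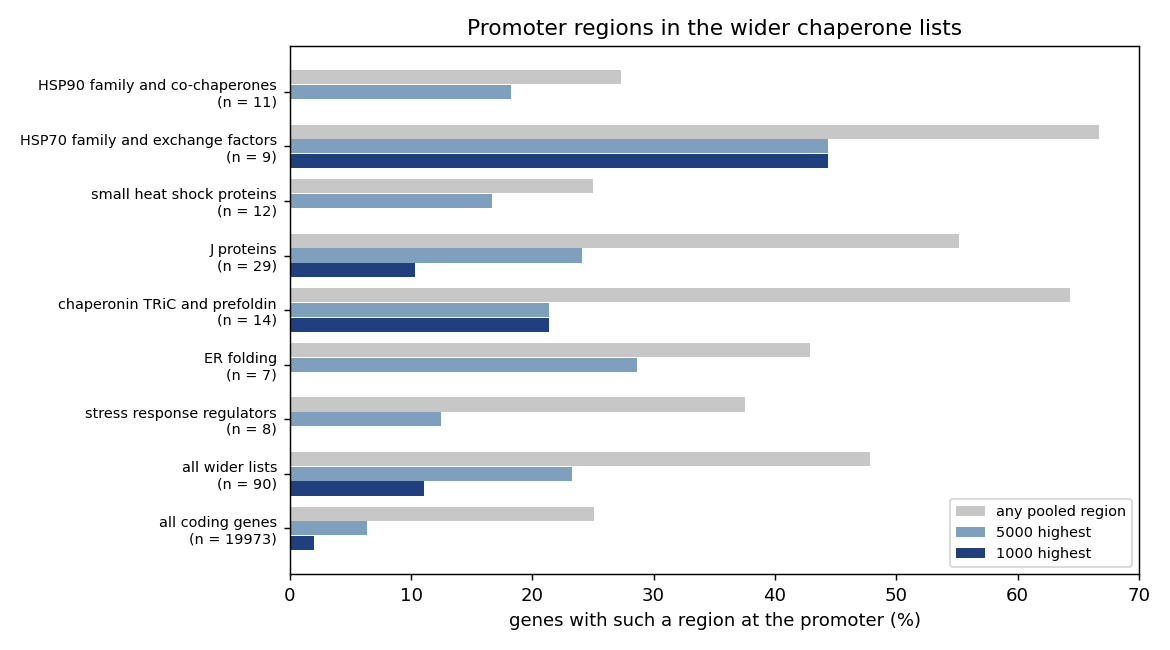
Percentage of the annotated genes of each list with a pooled region at the promoter, for any region, the 5000 highest and the 1000 highest. Bars start at 0, and n is the number of genes. The 9 HSP70 relatives and exchange factors reach 44.4% for the 1000 highest regions, where all coding genes stand at 2.01%. In that list F44E5.4 and F44E5.5 share the same region and are both counted. The bar for the 1000 highest is absent for HSP90 relatives, small heat shock proteins, endoplasmic reticulum folding and stress regulators.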

How the data were processed

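The authors deposited region lists in narrowPeak format. Per the deposited file records, 1 list was made from each replicate, 1 from both pooled and 1 after IDR, with a control alignment as a parent. The aligner, the peak caller and the cutoff of the IDR step: not given in the sources used here. Signal values are as the authors deposited them and served for ranks within a list. Column 9, by format convention a −log10 q-value, was read as deposited and supports no result. Regions are 290 bp wide in replicate 1 and 304 bp otherwise.

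Summits were placed on ce11 with the Ensembl 115 annotation. Of annotated start codons 99.9% read ATG in the RefSeq sequence, and 0 regions lay past a chromosome end. Regions with summits within 100 bp counted as matching. No p-value was computed, since 1 group has no contrast. The counting was tested on simulated regions. The members, lists and words were chosen with earlier results of these data known. The text names the 7 members, wider-list genes with a promoter region among the 1000 highest, genes sharing a named region and those most like hsp-90. Other genes of the wider list, and those with 2 IDR peaks, were named after their values were seen. Python 3.11.15, numpy 2.4.6, pandas 2.3.3 and matplotlib 3.10.9 were used.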

Additional observations from a re-analysis of the deposited data

How the results depend on the processing

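Of 32 alternatives over 12 results, 23 kept the value within 1.5 times, and 9 moved; the causes were not tested. The number of the 7 genes with an IDR peak was 1 on ce10 and in a window from 500 bp upstream. With a replicate left out and the 106 highest regions of the other used, it ranged from 1 to 2, with hsp-60 added without replicate 1. The rank of the highest region, 31 for hsp-90, ranged from 35 to 66 in the replicates alone. It ranged from 145 to 6162 for hsp-110, from 62 to 8381 for hsp-60, from 1285 to 2814 for hsp-3 and from 1025 to 1335 for hsp-6. For hsp-4 it was 1985 without replicate 2, and without replicate 1 there was no region to rank. Each value is the highest region anywhere in the window, so its place can differ between lists. The highest pooled region of hsp-6 ranked 19066 in replicate 1, and those of hsp-3 and hsp-60 had no match there within 100 bp. Of the 7 genes, 3 had a promoter region matched in both replicates, 2 with summits within 50 bp and 4 within 200 bp. Promoter regions at 43 genes of the wider list became 21 with the 5000 highest regions, which hold fewer regions by construction. The number of the 7 genes with a pooled promoter region was 4. It was 5 with a promoter from 1000 bp upstream, and 5 with either replicate left out. With the 5000 highest regions it stayed at 4. With the gene start alone, 3 of the 7 genes kept a promoter region and hsp-90 did not. No paired analysis was possible because the samples form a single group. Limits set by depth were not tested, as the lists give no read counts.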
